A study of Homo sapiens with 10 samples.

Results

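The genes described here are 5 members of the calcitonin peptide family and its receptor, namely the peptide precursors CALCB, CALCA and ADM, the receptor CALCRL and its partner RAMP1, out of 58222 genes in the deposited table. They were taken by symbol, and CALCB was picked because its level stood high only in the Day1 libraries of these same data. Its values in all groups are therefore given as a description, with no test. The libraries came from OVCAR-3, an established cell line from a human ovarian adenocarcinoma, kept in RPMI 1640 with fetal bovine serum, in 5 groups of 2 biological replicates. Control cells were kept in standard culture. Day1 cells were held in silica gel for 24 hours, and Day3 cells for 3 days. Extracted cells had survived 3 days in the gel and had then recovered for 2 weeks. Treated cells never saw the gel: they outlived 24 hours with cisplatin, a DNA-crosslinking platinum compound, at 0.5 uM, and recovered for 2 weeks. All values come from 1 cell line.

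CALCA is a gene with 2 products: by alternative splicing its transcript encodes either calcitonin or alpha-CGRP (calcitonin gene-related peptide), while CALCB encodes beta-CGRP. Adrenomedullin, the product of ADM, is a vasodilator peptide of the same family. CGRP and adrenomedullin share the G protein-coupled receptor CALCRL, whose ligand preference is set by a single-pass membrane partner. With RAMP1 it is the CGRP receptor, and with RAMP2 or RAMP3 an adrenomedullin receptor. The receptor couples to Gs, adenylyl cyclase and cyclic AMP (cAMP), and the peptides are cut from precursors and amidated at their C terminus, which their activity needs. CGRP is best known from sensory neurons and adrenomedullin from endothelium.

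The CGRP-coding stretch is shown for both genes because their mRNAs are nearly alike there, which bears on how far their levels can be told apart. It runs over 111 bases (37 codons), was located by the flanking cleavage and amidation sites in GENCODE release 29 transcripts on GRCh38, and is coding sequence of 1 exon in each gene. Capitals mark the bases that differ, and both sequences are written in the sense of the mRNA. The CALCB copy lies at chr11:15077305-15077415 on the plus strand, and the CALCA copy at chr11:14967725-14967835 on the minus strand.
CALCB: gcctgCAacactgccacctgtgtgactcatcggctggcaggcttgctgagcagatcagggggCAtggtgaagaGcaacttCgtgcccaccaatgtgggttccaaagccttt
CALCA: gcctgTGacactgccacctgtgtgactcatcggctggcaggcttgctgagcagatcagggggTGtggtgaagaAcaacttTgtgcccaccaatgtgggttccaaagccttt

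The stretches differed at 6 bases and were 94.6% identical, with a longest identical run of 55 bases. Over whole transcripts the genes were far more distinct. Of all 50-base words, 43 were common to the genes, which is 1.94% of those of CALCA and 1.11% of those of CALCB, and at 75 bases they had 0 in common. The read length and the treatment of multiply mapped reads were not found in the sources used here. CALCA (ENSG00000110680, chr11:14966668-14972354, minus strand) lies within the annotated span of CALCB (ENSG00000175868, chr11:14904997-15082342, plus strand), yet the genes shared 0 exonic bases. The CGRP stretch is present in 4 of 6 annotated CALCA transcripts, so the TPM of CALCA sums calcitonin and CGRP mRNA, which were not separated here. ADM (ENSG00000148926) lies at chr11:10304680-10307397 on the plus strand, RAMP1 (ENSG00000132329) at chr2:237858893-237912114 on the plus strand, and CALCRL (ENSG00000064989) at chr2:187343129-187448460 on the minus strand.

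Levels are TPM, a share of all transcripts that is corrected for transcript length, so that levels of different genes can be set side by side. The depth behind each value is unknown, since the table gives no counts. In bulk RNA, fewer cells making a transcript and less of it per cell cannot be told apart. Between 13896 and 14173 genes reached 1 TPM per library. mRNAs of the mitochondrial genome took 15.8% and 16.7% of TPM in Control, 2.29% and 3.92% on Day1, and 5.97% to 11.1% elsewhere. Small-RNA genes took 14.7% of Treated replicate 2 and 0.20% to 3.21% of the other libraries. Such shares can shift all other genes. The median log2 fold change over all tested genes was 0.12 for Day1 against Control and -0.15 for Treated against Control. It was -0.13 for Treated against Extracted, and within 0.10 of 0 for the other comparisons. With only nuclear protein-coding genes, scaled to the same total, the median was -0.056 for Day1 and -0.13 for Treated against Control. For Treated against Extracted it was then -0.043. The part of these shares in the medians was not tested. Of 15 markers of ovarian carcinoma and epithelium, 14 reached 1 TPM in at least 2 libraries, ESR1 being the exception.

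CALCB stood apart in a single group. It measured 13.3 and 11.6 TPM in both Control libraries, 118.7 and 94.8 for Day1, 14.9 and 17.2 for Day3, 11.6 and 11.7 for Extracted, and 13.7 and 11.5 for Treated. The Day1 libraries did not overlap with any other, and the lower of them was over 5 times the highest value elsewhere. The Day1 mean of 106.8 ± 16.9 TPM (SD, n = 2) was 8.56 times the Control mean of 12.5 ± 1.21, a log2 difference of 2.99 ± 0.14 (SE) on the log2(TPM + 1) scale. This was the 10th largest rise among the 15167 genes tested, a rank that describes the gene and is not evidence, since the gene was picked for it. Among protein-coding genes ordered by level, CALCB moved from place 7136 and 7693 in Control to 1338 and 1620 on Day1, and was back at 6919 and 6365 on Day3.

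The Day3 mean of CALCB, 16.1 ± 1.63 TPM, lay 0.34 above Control and 2.65 below Day1 on the log2 scale. Both Day3 libraries were above both Control libraries. The CALCB log2 difference was -0.09 ± 0.14 (SE) for Extracted against Control, 0.01 ± 0.14 for Treated against Control, and 0.10 ± 0.14 for Treated against Extracted, and the libraries of these 3 groups lay between 11.5 and 13.7 TPM.

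**Figure D1:**
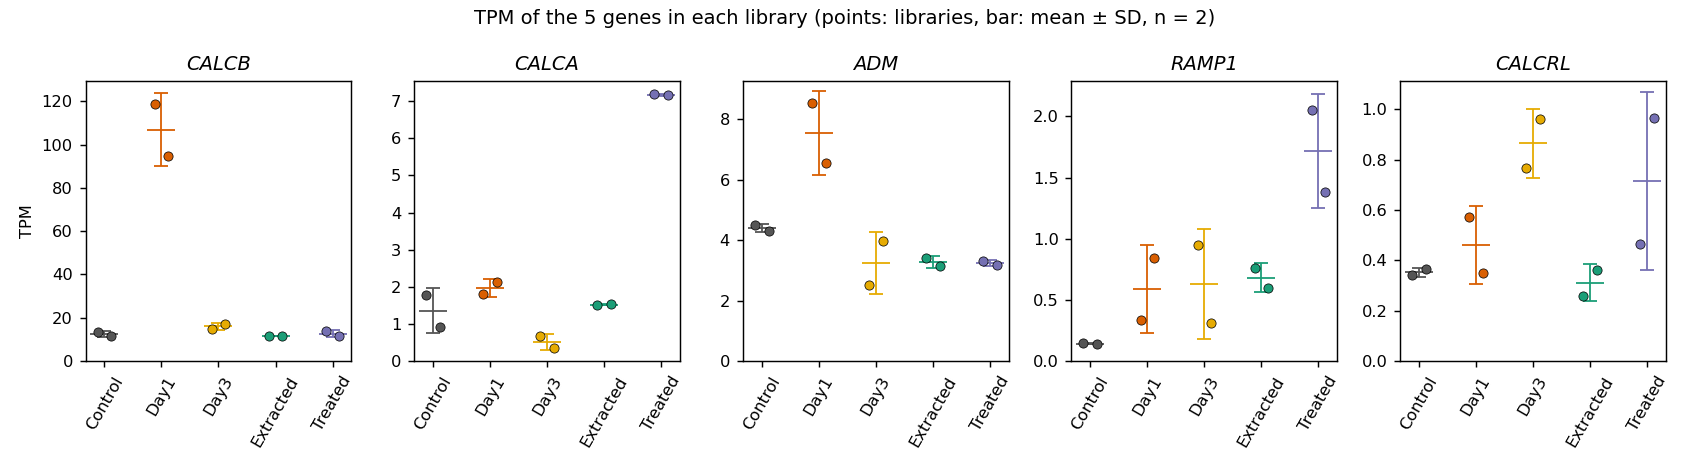
TPM of CALCB, CALCA, ADM, RAMP1 and CALCRL in each of the 10 libraries by group, with points for libraries and bars for the group mean and SD (n = 2). CALCB stands at 94.8 and 118.7 TPM on Day1 and at 11.5 to 17.2 elsewhere, CALCA is highest in Treated, and RAMP1 and CALCRL stay near or below 1 TPM outside the Treated RAMP1 libraries.

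CALCA, the second CGRP gene, followed another course and was highest in the cisplatin survivors. It measured 1.79 and 0.925 TPM in Control, 1.81 and 2.13 for Day1, 0.667 and 0.359 for Day3, 1.51 and 1.53 for Extracted, and 7.19 and 7.15 for Treated. The Treated libraries lay far above all others, and the Day3 libraries below all others. In Treated cells the mean TPM of CALCA was 5.28 times that of Control, 7.17 ± 0.0243 against 1.36 ± 0.613 TPM (SD, n = 2). On the log2(TPM + 1) scale, which shrinks differences at low levels, the log2 fold change was 1.82 ± 0.21 (adjusted p = 0.000453, limma). Against Extracted, the other recovered group, the mean TPM of CALCA was 4.72 times as high. The log2 fold change on the log2(TPM + 1) scale was 1.70 ± 0.21 (adjusted p = 0.00199, limma). Both calls were kept in all 17 alternative analyses. Extracted cells themselves stood at the Control level, with a log2 fold change of 0.12 ± 0.21 (adjusted p = 0.821).

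In the gel, the values of CALCA showed no peak like that of CALCB. Its Day1 difference from Control was 0.36 ± 0.21 on the log2 scale (adjusted p = 0.251) and the Day1 libraries lay just above the higher Control library. From Day1 to Day3 it fell by 0.98 (adjusted p = 0.0432), and from Day3 to Extracted it rose by 0.74 (adjusted p = 0.036). Both of these calls rest on levels near 1 TPM. The Day3 call against Day1 was kept in 6 of 17 alternatives and the Extracted call in 11 of 17, with adjusted p up to 0.274 and 0.194. Against Control, Day3 missed the threshold at -0.62 ± 0.21 (adjusted p = 0.0914).

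The balance between the CGRP genes differed between the groups. CALCB made up 88.2% and 92.6% of their summed TPM in Control, 98.5% and 97.8% for Day1, 95.7% and 98.0% for Day3, 88.5% and 88.4% for Extracted, and 65.6% and 61.7% in Treated. The ratio of CALCB to CALCA was 65.7 and 44.5 on Day1 and 1.91 and 1.61 in Treated, against 7.44 and 12.6 in Control. CALCB was the more abundant in every library. The Day1 share holds the CALCB level that chose the gene, and in Treated the lower share went with a higher CALCA and a CALCB at 12.6 ± 1.53 TPM.

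ADM was expressed at a few TPM throughout, with its highest values on Day1. It measured 4.50 and 4.30 TPM in Control, 8.51 and 6.55 for Day1, 2.52 and 3.98 for Day3, 3.42 and 3.15 for Extracted, and 3.31 and 3.17 for Treated. The Day1 libraries exceeded all others, and Day3, Extracted and Treated all lay below Control without overlap. The Day1 mean TPM was 1.71 times that of Control. On the log2(TPM + 1) scale the log2 fold change was 0.65 ± 0.19 (adjusted p = 0.0364, limma), against the all-gene median of 0.12. The call is weak: it was lost in 9 of 17 alternatives, including both rescalings, the unfiltered table and the omission of either Control library, with adjusted p from 0.029 to 0.187. From Day1 to Day3 ADM fell by 1.02 on the log2 scale (adjusted p = 0.0273), a call kept in 8 of 17 alternatives. The values below Control did not pass the test, at -0.37 for Day3 (adjusted p = 0.249), -0.33 for Extracted (adjusted p = 0.396) and -0.35 for Treated (adjusted p = 0.204), each with an SE of 0.19.

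Receptor transcripts were scarce. CALCRL, the receptor that CGRP and adrenomedullin share, measured 0.341 and 0.364 TPM in Control, 0.570 and 0.352 for Day1, 0.766 and 0.961 for Day3, 0.259 and 0.363 for Extracted, and 0.466 and 0.966 for Treated. It stayed under 1 TPM in all 10 libraries and so was not tested in the main analysis. Both Day3 values were above both Control values, and in the unfiltered table the CALCRL log2 fold change for Day3 against Control was 0.46 (adjusted p = 0.179, limma). The 2 Treated values differed from each other by more than those of Control or Extracted.

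RAMP1, which turns CALCRL into the CGRP receptor, measured 0.144 and 0.143 TPM in Control, 0.336 and 0.842 for Day1, 0.950 and 0.310 for Day3, 0.764 and 0.601 for Extracted, and 2.05 and 1.39 for Treated. Every library outside Control lay above both Control libraries, and the Treated libraries lay above all others. Its call in Treated against Control (log2 fold change 1.24 ± 0.26, adjusted p = 0.0089, limma) adds nothing to these values, because RAMP1 reached 1 TPM in the Treated libraries alone and passed the filter on low values only through them. The call was lost without Control replicate 2 (adjusted p = 0.0555). Against Control, the differences of 0.46 on Day1, 0.48 on Day3 and 0.56 in Extracted had adjusted p of 0.241, 0.274 and 0.303.

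**Figure D2:**
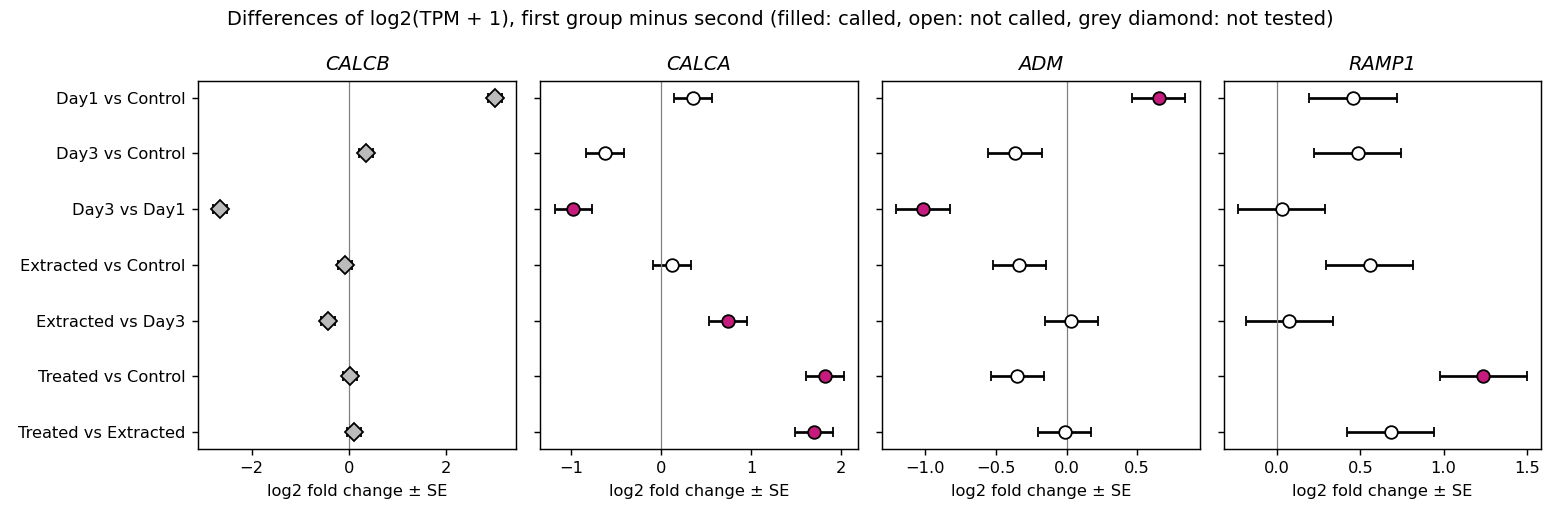
Log2 fold changes on the log2(TPM + 1) scale with standard errors for the members that passed the filter, in the 7 comparisons. Filled circles were called, open circles were not, and grey diamonds were not tested. CALCB departs from 0 by 2.99 in Day1 against Control and by -2.65 in Day3 against Day1, values that chose the gene, whereas CALCA departs most in Treated (1.82 against Control and 1.70 against Extracted).

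In counts, 4 of the 5 members passed the filter of 1 TPM in at least 2 libraries, and CALCB is left out of what follows. Of the 3 that remain, CALCA, ADM and RAMP1, 1 was called on Day1 against Control (ADM, higher), where 20.7% of all tested genes were called and 14.4% were called higher. None was called on Day3 against Control, where 9.82% of genes were called (5.18% higher and 4.64% lower), or in Extracted against Control, where 1.99% were (0.857% higher and 1.13% lower), at adjusted p of 0.0914 or more and 0.303 or more. In Treated against Control 2 were called, CALCA and RAMP1, beside 24.5% of all genes called, 6.28% higher and 18.2% lower. For Day3 against Day1, 2 were called lower, CALCA and ADM, beside 2.35% of all genes called, 0.659% higher and 1.69% lower. CALCA alone was called in Extracted against Day3 (17.1% of all genes, 6.3% higher) and in Treated against Extracted (12.1% of all genes, 3.24% higher and 8.87% lower). With 3 genes, of which 1 passed the filter through a single group, these counts describe the genes and cannot be read as a property of the family.

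The remaining family peptides split between higher and lower on Day1. ADM2, which encodes intermedin, a peptide that acts on the same receptors, measured 1.95 and 1.49 TPM in Control, 7.69 and 5.53 for Day1, 2.63 and 2.66 for Day3, 2.86 and 2.80 for Extracted, and 2.74 and 2.71 for Treated. Its Day1 rise of 1.48 ± 0.18 (adjusted p = 0.000794, limma) was kept in all 17 alternatives, and it fell by 1.05 from Day1 to Day3 (adjusted p = 0.0196), a call kept in 12 of 17. Outside Day1 and Control, all 6 ADM2 libraries lay above both Control libraries, whereas those of ADM lay below. ADM5, annotated as a putative adrenomedullin-like gene, went the other way, from 3.58 and 4.19 TPM in Control to 1.33 and 1.62 on Day1 and 1.62 and 1.58 on Day3, and measured 3.58 and 3.26 in Extracted and 3.00 and 2.46 in Treated. It fell by 0.98 on Day1 (adjusted p = 0.00398) and by 0.91 on Day3 (adjusted p = 0.0109), and rose by 0.77 from Day3 to Extracted (adjusted p = 0.0117). The Day1 call of ADM5 was kept in all 16 alternatives in which it was tested, and the other 2 calls were each lost without any 1 of the 4 libraries compared. ADM5 shares 21.3% of its exonic bases with PRMT1 on the same strand and 24.9% with a gene on the opposite strand, so its level is uncertain. IAPP, the amylin precursor, was listed at 0 in all libraries.

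Among the other receptor genes, CALCR, the calcitonin receptor, and GPR182, an atypical receptor once assigned to adrenomedullin, were listed at 0 in all libraries. RAMP3 was listed at 0 in 9 libraries and at 0.205 TPM in Day3 replicate 1. RAMP2 ranged from 0.172 to 1.13 TPM and was not tested. CRCP, whose product is a CGRP receptor component and also an RNA polymerase III subunit, was the most abundant of the list at 25.5 to 44.3 TPM, and ACKR3, a scavenging chemokine receptor that also binds adrenomedullin, ranged from 0.95 to 2.97 TPM. Neither of these was called in any of the 7 comparisons.

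Of 17 genes that process or break down the peptides, 12 were tested. On Day1 against Control 3 rose and 0 fell (25% called, near the 20.7% of all genes), at a list median of 0.14 against 0.12 over all genes. PAM, the amidating enzyme that completes CGRP and adrenomedullin, went from 49.1 and 49.5 TPM to 79.5 and 67.1 (log2 fold change 0.56 ± 0.12, adjusted p = 0.0113). ECE2, an endothelin-converting peptidase, rose by 0.67 (adjusted p = 0.00368) and CPD, a carboxypeptidase that trims cleaved precursors, by 0.45 (adjusted p = 0.0222). ECE2 shares 62.7% of its exonic bases with a readthrough gene on the same strand. The ECE2 call was kept in all 17 alternatives, those of PAM and CPD in 14 and 12. PCSK1, the neuroendocrine prohormone convertase, stayed at or below 0.846 TPM and PCSK2 at or below 0.0323, while FURIN, the widely expressed convertase, ranged from 8.33 to 14.5 TPM.

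In each of the other groups against Control 1 of the 12 processing genes was called (8.33%), beside 9.82% of all genes on Day3, 1.99% in Extracted and 24.5% in Treated. CPE, carboxypeptidase E of the regulated secretory pathway, was lower in both recovered groups: 36.6 and 38.3 TPM in Control against 18.9 and 19.3 in Extracted and 24.0 and 18.7 in Treated. It fell by 0.94 in Extracted (adjusted p = 0.0151) and by 0.79 in Treated (adjusted p = 0.00327), the only calls of the list against Control in these groups. The Extracted call was lost when any of the 4 compared libraries was left out, and the Treated call was kept in all 17 alternatives. MME, neprilysin, a peptidase that degrades CGRP and adrenomedullin, measured 2.69 and 3.15 TPM in Control and 0.887 and 1.26 on Day3. That was a fall of 0.92 (adjusted p = 0.0295, limma). MME was also 0.95 higher in Treated than in Extracted (adjusted p = 0.025, limma), a call kept in 11 of 16 alternatives. Without any 1 of the Control or Day3 libraries the Day3 call of MME was lost.

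Of 43 genes of Gs and cAMP signalling 37 were tested, and on Day1 3 rose and 3 fell (16.2% called, beside 20.7% of all genes), with a median of 0.06 against 0.12 over all genes. RAPGEF3, which encodes EPAC1, a cAMP-activated exchange factor for Rap, had the largest change. It measured 79.0 and 100.7 TPM in Control, 23.0 and 24.2 for Day1, 35.1 and 39.3 for Day3, 55.9 and 60.2 for Extracted, and 58.6 and 49.3 for Treated. It was below Control without overlap in every other group, falling by 1.88 ± 0.14 on Day1 (adjusted p = 8.86e-05), by 1.24 on Day3 (adjusted p = 0.00117) and by 0.72 in Treated (adjusted p = 0.00536). The Day1 and Day3 calls of RAPGEF3 were kept in all 17 alternatives. An opposite-strand gene overlaps 15.2% of its exonic bases, and whether the libraries keep strand is not stated in the labels. ADCY3, an adenylyl cyclase, fell by 0.88 on Day1 (adjusted p = 0.0105), a call kept in 15 of 17 alternatives. An opposite-strand gene overlaps 24.6% of the exonic bases of ADCY3. CRTC2, a coactivator of the cAMP-responsive factor CREB, rose by 0.70 on Day1 (adjusted p = 0.00237).

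In Treated cells 10 of these 37 genes fell and 1 rose against Control (29.7% called, beside 24.5% of all genes), with a median of -0.28 against -0.15 over all genes. GRK3, a kinase that desensitizes G protein-coupled receptors, fell by 1.18 (adjusted p = 0.00104) and PRKAR2B, a regulatory subunit of protein kinase A, by 0.90 (adjusted p = 0.0104). PDE3B, a cyclic nucleotide phosphodiesterase, fell by 0.76 (adjusted p = 0.0484), a call kept in 5 of 16 alternatives and lost without any 1 of the 4 libraries compared (adjusted p up to 0.251). When libraries were rescaled by the median of ratios, 6 fell and 1 rose. On Day3 2 genes fell (5.41% called, beside 9.82% of all genes), and in Extracted against Control 0 were called, beside 1.99%. From Day3 to Extracted 2 rose and 7 fell (24.3% called, beside 17.1% of all genes). GRK3 again had the largest fall, of 1.11 (adjusted p = 0.00197). PDE3A, among those that fell, passed the filter only through its Day3 libraries (1.17 and 1.65 TPM), so its call adds nothing to these values.

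Of the genes that cAMP is known to induce, 8 of 16 tested rose on Day1 and 3 fell, beside the 14.4% and 6.28% over all genes, at a list median of 0.25 against 0.12. When only nuclear protein-coding genes were used and scaled to the same total, 5 rose and 3 fell. Most of them are also induced by many other stimuli. AREG, amphiregulin, a ligand of the EGF receptor, measured 5.62 and 5.25 TPM in Control, 24.3 and 14.9 for Day1, 4.35 and 5.55 for Day3, 22.5 and 30.3 for Extracted, and 101.5 and 77.3 for Treated. AREG was thus above Control on Day1, near the Control range on Day3, and highest in Treated. It rose by 1.64 ± 0.23 on Day1 (adjusted p = 0.00186), 2.07 in Extracted (adjusted p = 0.005) and 3.80 in Treated (adjusted p = 1.66e-05). FOSB, an immediate-early factor, rose by 1.13 on Day1 (adjusted p = 0.0107) and NR4A1, a nuclear receptor of the same kind of early response, by 1.01 (adjusted p = 0.0162), both calls lost in at least 3 alternatives. FOSB reached no more than 2.80 TPM. PPARGC1A, a coactivator of mitochondrial genes, PDE4B, a phosphodiesterase, and IRS2, an insulin receptor substrate, were the 3 that fell.

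Of the cAMP-induced genes 4 rose and 5 fell in Treated cells (56.25% called, beside 24.5% of all genes). FOS went from 8.14 and 9.74 TPM in Control to 25.0 and 24.0 (1.36 ± 0.15, adjusted p = 0.000348), PPARGC1A fell by 1.33 (adjusted p = 0.00574) and NR4A2, a nuclear receptor, by 1.19 (adjusted p = 0.000663). In Extracted cells 3 rose and 1 fell (25% called, beside 1.99% of all genes). AREG, FOS (1.35, adjusted p = 0.005) and NR4A2 (-0.99, adjusted p = 0.0166) led these changes. On Day3 against Control 0 rose and 3 fell (18.75% called, beside 9.82% of all genes). From Day1 to Day3 4 fell and 0 rose (25% called, beside 2.35% of all genes), led by AREG (-1.76, adjusted p = 0.00889). The genes CREM, PDE4B and PDE4D stand on both cAMP lists.

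**Figure D3:**
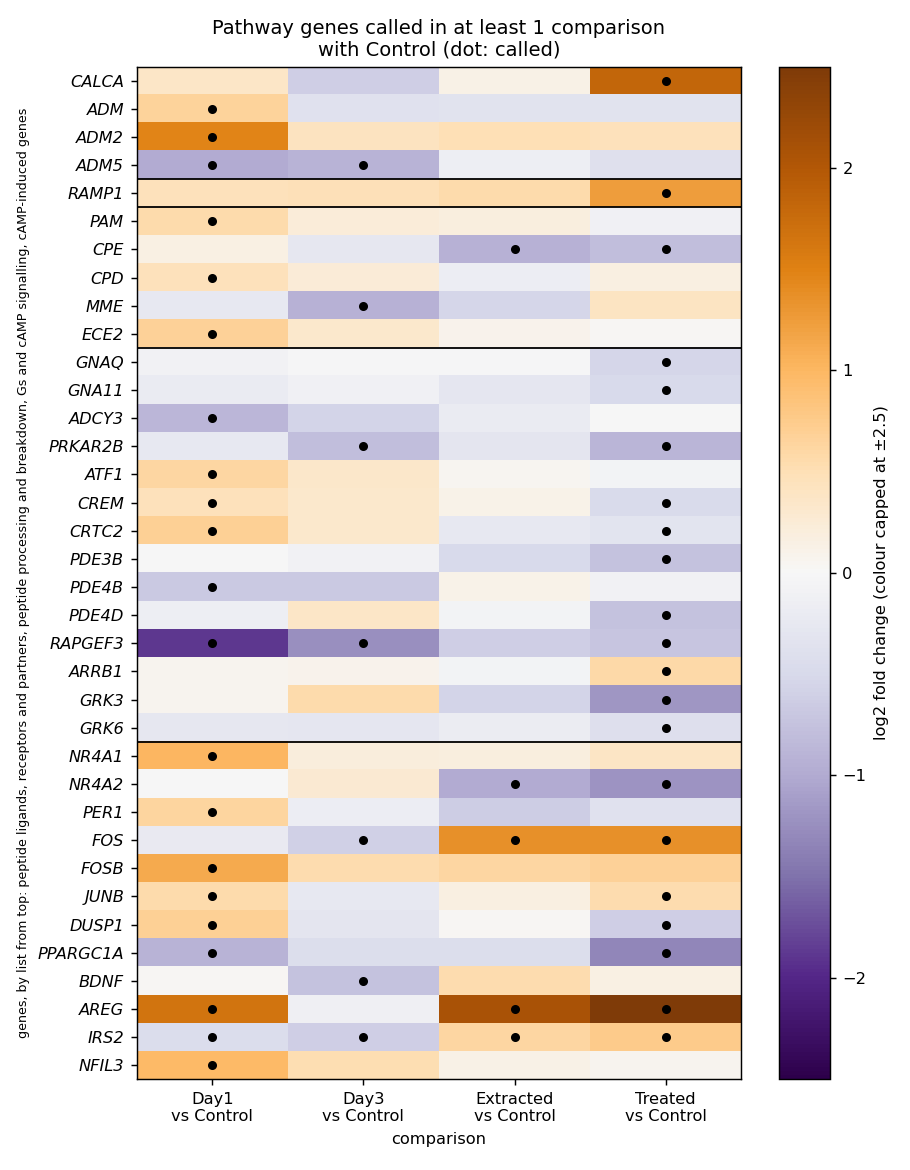
Log2 fold changes of the genes of the 5 lists called in at least 1 comparison with Control, grouped by list (genes on both cAMP lists stand once, under signalling, and CALCB is left out), in 4 columns for Day1, Day3, Extracted and Treated against Control. Colour is capped at 2.5 in either direction and a dot marks a call. On Day1 ADM2, AREG and CRTC2 are higher and RAPGEF3 and ADM5 lower, and in Treated cells CALCA and AREG are higher while GRK3 is lower.

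Together the 5 lists hold 91 genes besides CALCB, of which 69 were tested. On Day1 15 rose and 6 fell (30.4%, beside 20.7% of all genes), but the balance of directions depended on the scaling: 13 rose and 9 fell with the median of ratios, and 10 rose and 11 fell with nuclear protein-coding genes alone. On Day3 0 rose and 7 fell (10.1%, beside 9.82%), and in Extracted 3 rose and 2 fell (7.25%, beside 1.99%). In Treated 7 rose and 14 fell (30.4%, beside 24.5%), or 11 and 10 with the median of ratios and 10 and 14 with nuclear protein-coding genes alone. Of the 21 genes called on Day1, 9 kept their call in every alternative. Of the 21 called in Treated 8 did, of the 5 called in Extracted 0 did, and of the 7 called on Day3 1 did. Between Day3 and Day1 0 of 8 calls were kept throughout.

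ADM is a well-known target of hypoxia-inducible factors (HIF), so a list of HIF subunits and hypoxia targets was read beside it. Of 17 tested genes of this list, 5 rose and 2 fell on Day1 (41.2% called, beside 20.7% of all genes). The list median was 0.32 against 0.12 over all genes. DDIT4, an inhibitor of mTOR signalling, went from 21.3 and 20.2 TPM to 111.4 and 80.7 (2.14 ± 0.16, adjusted p = 8.86e-05), BNIP3, a mitophagy receptor, rose by 1.42 (adjusted p = 0.000236) and P4HA1, a collagen prolyl hydroxylase, by 1.27 (adjusted p = 0.000187). Others of the list did not move this way: EGLN3, a prolyl hydroxylase that is itself a HIF target, fell by 0.80 (adjusted p = 0.00221). DDIT4 overlaps an opposite-strand gene over 41.2% of its exonic bases. On Day3 4 rose and 0 fell (23.5%, beside 9.82% of all genes), while ADM stood below Control without passing the test. The Day3 calls of BNIP3, DDIT4, HIF1A and P4HA1 were kept in 7, 13, 12 and 13 of 17 alternatives. In Treated cells 5 rose and 6 fell (64.7%, beside 24.5%). The subunit gene HIF1A was among those that rose on Day3. In Treated against Control, HIF1A and ARNT were among those that fell and EPAS1 among those that rose. No oxygen measurement was among the files used here.

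The genes whose log2(TPM + 1) followed each member most closely over the 10 libraries were named as a description, since the libraries fall into 5 group levels and a shared Day1 peak alone gives a high correlation. For CALCB they were KLF10 (Pearson r = 0.979), DDIT3 (0.977), FSTL3 (0.970), VLDLR (0.968), NFKBIZ (0.966) and IFRD1 (0.965). DDIT3, the stress-induced transcription factor CHOP, measured 23.7 and 25.5 TPM in Control, 170.9 and 119.0 on Day1, and 27.8 to 42.8 in the remaining libraries. KLF10, a zinc finger factor induced by TGF-beta, measured 115.2 and 79.3 on Day1 and 30.4 to 43.0 elsewhere. All 6 of these genes had their highest library on Day1.

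For CALCA the nearest of those reported were WNT10A (0.969), MMP1 (0.948), LOXL2 (0.941), SEC14L2 (0.928) and MAP3K8 (0.928). MMP1, a secreted collagenase, measured 5.60 and 5.15 TPM in Treated and at most 0.973 elsewhere. It passed the filter only through Treated, where CALCA was highest, so its place here adds nothing to these values. All 5 of these genes were highest in a Treated library and lowest in a Day3 library. For ADM the nearest were SLC16A9 (0.952), LINC00294 (0.940), RCOR1 (0.933), DOPEY2 (0.927), DCBLD1 (0.925) and SYT7 (0.923). For RAMP1 they were CD9 (0.940), SLC9A3R2 (0.939), LEMD1 (0.921), ELK3 (0.920), HIBADH (0.920) and MSLN (0.916), all of them highest in Treated. Among the members, CALCB and ADM correlated at 0.885 and CALCA and RAMP1 at 0.736, whereas CALCB and CALCA gave -0.05. Because RAMP1 passed the filter only through Treated, its correlations add nothing to its values.

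**Figure D4:**
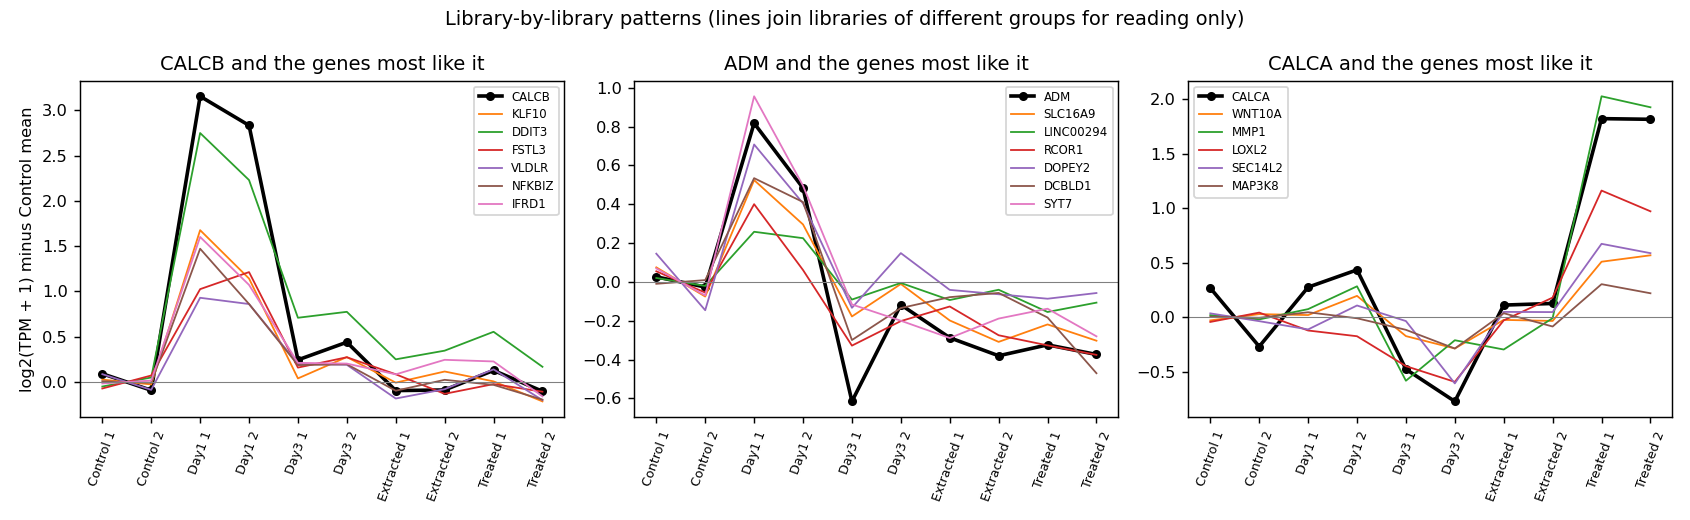
Levels in the 10 libraries of CALCB, ADM and CALCA (black) and of the genes most like each (colours; 6 for CALCB and ADM, 5 for CALCA), as log2(TPM + 1) minus the Control mean, on a scale of its own in each panel. The genes most like CALCB share a Day1 peak (KLF10 at 115.2 and 79.3 TPM), and those most like CALCA are highest in the Treated libraries (WNT10A at 54.6 and 57.0 TPM).

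Genes near CALCB had smaller Day1 differences than CALCB, which was picked for its rise, so this contrast is not evidence. Of 15 annotated genes within 500 kb, 5 were tested: CALCA, COPB1, PSMA1, PDE3B and CYP2R1. On Day1 against Control CYP2R1, a vitamin D 25-hydroxylase, went from 16.3 and 16.8 TPM to 26.4 and 27.7 (0.68 ± 0.15, adjusted p = 0.0121) and COPB1, a coat protein of Golgi vesicles, rose by 0.47 (adjusted p = 0.0135). PSMA1, a proteasome subunit, and PDE3B had differences of 0.16 (adjusted p = 0.219) and -0.01 (adjusted p = 0.987). CYP2R1 fell again by 0.70 from Day1 to Day3 (adjusted p = 0.0407). Around ADM, 6 of 20 annotated genes were tested, and SBF2 alone was called on Day1 (0.49, adjusted p = 0.0374). Over all tested genes, 20.7% were called on Day1 against Control and 14.4% were called higher. In Treated cells, where CALCA rose, CYP2R1 fell by 0.45 (adjusted p = 0.049), and PDE3B fell by 0.76 in the call, given above, that most alternatives lost. Near ADM, RNF141 (-0.91, adjusted p = 0.0014, limma), AMPD3 (-0.72, adjusted p = 0.0111) and EIF4G2 (-0.49, adjusted p = 0.0107) fell in Treated against Control. In that comparison 18.2% of all tested genes were called lower.

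Markers of cell types known for these peptides were mostly low. Of 12 endothelial markers 1, ERG, reached 1 TPM in at least 2 libraries (4.90 to 10.3 TPM), EMCN and ROBO4 were at 0, and their summed TPM was 11.2 to 11.3 in Control, 6.84 to 8.79 on Day1 and 9.20 to 12.4 in the other groups. Of 12 neuronal and neuroendocrine markers 1, CHGA, reached that level (2.44 to 4.22 TPM), INSM1, NEUROD1 and STMN2 were among those at 0, and the sum was 3.90 to 4.08 in Control, 4.50 to 4.72 on Day1 and 4.33 to 4.36 in Treated. Outside Day1 the endothelial sum, 9.20 to 12.4 TPM, was of the size of CALCB at 11.5 to 17.2 and above ADM at 2.52 to 4.50. Apart from ERG, no endothelial marker exceeded the 1.05 TPM that VWF reached. The part of endothelial or neuronal cells in the results was not tested. Fibroblast markers reached 1 TPM for 3 of 10 genes, with sums of 8.98 to 19.8, and immune markers for 3 of 11, with CD3D, HBB and NKG7 at 0. The immune sum was 8.66 to 10.1 in Treated, where CALCA was highest, and 3.04 to 6.91 in the other groups, and its part in that result was not tested.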

How the data were processed

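RNA-seq libraries of OVCAR-3 cells, 5 groups of 2 biological replicates per the labels, were read from a single table of TPM that the authors deposited. Reads were trimmed with Trimmomatic, aligned with STAR to GRCh38 and quantified with Cufflinks, per the submitters' processing notes. Versions, annotation, read length and strand were not found there or in the labels. TPM of 91 entries that repeat an identifier were summed, leaving 58222 genes. TPM hold no counts, so depth is unknown, p-values measure only the spread between these samples, and a count model was not used.

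The filter kept 15167 genes that reached 1 TPM in 2 or more libraries. A limma model (version 3.58.1, R 4.3.3) with a mean-variance trend was fitted to log2(TPM + 1) of all 10 libraries at once, which leaves 5 residual degrees of freedom. A gene was called in a comparison when its two-sided p, adjusted by Benjamini-Hochberg over all tested genes, was under 0.05, and only called genes are said to have risen or fallen. Fold changes on this scale understate those of low genes. The 5 members and all gene lists were chosen with earlier results of these data known, and no list was tested as a set. Of each list at most the 3 called genes with the largest change per comparison were named by rule. Genes named beyond it were chosen after their values were seen. They were CREM, PDE4B, PDE4D, IRS2, EGLN3, HIF1A, ARNT, PPARGC1A on Day1, RAPGEF3 in Treated, PCSK1, PCSK2, FURIN, CALCR, GPR182, RAMP2, RAMP3 and IAPP. Some genes that the rules or lists named are not reported here. Likeness was measured among 10845 tested genes whose highest group mean reached 5 TPM. The labels do not say whether replicate numbers pair samples, and none were paired in the fit (same-number correlations from -0.0224 to 0.0874 over 10 group pairs). As alternatives, the pseudocount was set to 0.1, the filter was dropped or raised to 5 TPM, libraries were rescaled in 2 ways, the fit was limited to the 2 groups compared, a replicate block was added, and single libraries were left out in turn. The fit was tested on simulated data. GENCODE release 29 held 99.55% of the identifiers and gave positions and sequences. Tables and plots were made in Python 3.11.15 with NumPy 2.4.6, pandas 2.3.3 and Matplotlib 3.10.9.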

Additional observations from a re-analysis of the deposited data

How the results depend on the processing

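Members called, CALCB left out, were 1 for Day1 against Control, and 0 with no filter, under either rescaling (median of ratios, or nuclear protein-coding genes alone) or with the 2 groups alone. For Day3 against Control 0 became 1 with nuclear protein-coding genes. For Treated against Control 2 became 1 with the 5 TPM filter, and for Treated against Extracted 1 became 2 with nuclear protein-coding genes. For Day3 against Day1 2 became 0 with no filter or the 2 groups alone and 1 with the 5 TPM filter, and for Extracted against Day3 1 became 0 with no filter or the 5 TPM filter. Leaving out 1 library gave 0 to 1 for Day1, 0 to 0 for Day3 and Extracted, and 1 to 2 for Treated against Control, 0 to 1 for Day3 against Day1 and for Extracted against Day3, and 1 to 1 for Treated against Extracted.

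Pathway genes called for Day3 against Control (7) became 3 with no filter, 13 with the median of ratios, 15 with nuclear protein-coding genes and 12 with the 2 groups alone. For Extracted against Control 5 became 2 with no filter and 9 with nuclear protein-coding genes. With the 2 groups alone Treated against Control went from 21 to 13, Day3 against Day1 from 8 to 0 and Treated against Extracted from 9 to 2. With no filter the last 2 gave 1 and 5, and Treated against Extracted gave 14 with nuclear protein-coding genes. Leaving out 1 library gave 10 to 24 for Day1 (21), 1 to 12 for Day3, 0 to 7 for Extracted and 10 to 23 for Treated against Control, 0 to 9 for Day3 against Day1, 6 to 22 for Extracted against Day3 (20) and 2 to 10 for Treated against Extracted. The lone library of a group was then assumed to vary like the other groups. The causes were not tested.

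The ADM difference of -0.01 for Treated against Extracted became 0.097 and 0.076 under the rescalings and -0.061 to 0.031 without 1 library. Other near-zero log2 differences also changed sign without 1 library: CALCB -0.18 to 0.000175 for Extracted against Control, -0.10 to 0.13 for Treated against Control and -0.011 to 0.22 for Treated against Extracted, CALCA -0.15 to 0.39 for Extracted against Control, RAMP1 -0.26 to 0.31 for Day3 against Day1 and -0.21 to 0.36 for Extracted against Day3, and ADM -0.22 to 0.28 for Extracted against Day3. The replicate block, a pairing that the labels do not state, gave 1 member and 23 pathway genes called for Day1. It gave 2 and 20 for Treated against Control, and changed no member call. Over all genes, the share of calls that were higher was 69.6% for Day1 against Control, 49.2% with the median of ratios and 34.0% with nuclear protein-coding genes, and for Treated against Control it was 25.7%, 51.1% and 30.4%.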

Other observations

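Other peptide hormones, neuropeptides and related secreted factors were mostly silent in these cells: of 58 genes listed, 15 passed the filter. On Day1 against Control 2 rose and 2 fell (26.7%, beside 20.7% of all genes). EDN2, an endothelin precursor, measured 10.9 and 6.76 TPM in Control, 0.447 and 1.94 for Day1, 1.75 and 2.37 for Day3, 6.77 and 7.64 for Extracted, and 1.19 and 2.86 for Treated. It fell by 2.22 ± 0.36 on Day1 (adjusted p = 0.00344, limma), in the libraries where CALCB and ADM2 were highest. STC2, stanniocalcin 2, a secreted glycoprotein hormone, measured 16.2 and 17.0 TPM in Control, 50.1 and 35.7 on Day1, and 15.6 to 24.3 in the other libraries, and rose by 1.30 on Day1 (adjusted p = 0.000878). Both Day1 calls were kept in all 17 alternatives.

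PTHLH, parathyroid hormone-related peptide, also rose on Day1, from 17.6 and 15.2 TPM to 34.1 and 25.8 (0.82, adjusted p = 0.0133), and was again high in Extracted at 35.3 and 49.7 (1.31 over Control, adjusted p = 0.0145). Each of these calls was kept in 1 of the 4 fits that left out a library of the groups compared. In Treated cells 5 genes of this list rose and 2 fell (46.7%, beside 24.5% of all genes). NPW, neuropeptide W, rose by 1.41 (adjusted p = 0.000902) and CCK, cholecystokinin, by 1.11 (adjusted p = 0.00272), and both were also higher in Treated than in Extracted, by 0.92 (adjusted p = 0.0159) and 0.96 (adjusted p = 0.0129). The calls against Control were kept in all alternatives in which these genes were tested, and those against Extracted in 1 of the 4 fits that left out a library compared. An opposite-strand gene overlaps 33.2% of the exonic bases of CCK.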
